A study of Oryza sativa with 51 samples.

Results

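In rice seedlings, 224 chromatin regions carried more monoubiquitinated histone H2B (H2Bub1) under moderate drought than under normal water in the authors' deposited table. They were chosen by 1 rule, a log2 concentration under drought minus that under normal water above 0. They made up 16.1% of the 1395 regions listed, and the other 1171 regions lost the mark. The deposited annotation assigned the 224 regions to 221 genes.

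The study measured RNA and, by chromatin immunoprecipitation and sequencing, H2Bub1 in rice seedlings at the 4-leaf stage. The samples used here were all of the line Zhonghua11, a japonica rice cultivar, in 3 groups: normal water, moderate drought (soil water of about 20%) and severe drought (about 10%), with drought developed slowly in paddy soil. Each group had 3 RNA libraries and 3 H2Bub1 samples, but the H2Bub1 tables give 1 combined value per condition and no spread between replicates. A second set of H2Bub1 samples came from leaves of wild type and osbzip46 mutant plants in the Zhonghua11 background, each under normal water and under drought with 3 samples per group, and the labels name no allele for the mutant. Severe replicate 3 stood apart among the RNA libraries, correlating with the others at 0.955 or less. The labels do not say that replicates were separate plants, so the p-values reflect sample-to-sample spread that could be technical.

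H2Bub1 is a single ubiquitin attached to histone H2B. In plants it is set by the ligases HUB1 and HUB2 and removed by ubiquitin proteases, so that the mark can be reversed. It lies over the transcribed part of genes, is mostly found downstream of the start, and is known to accompany transcript elongation. OsbZIP46 is a transcription factor that acts in responses to abscisic acid (ABA), the hormone through which plants respond to water loss.

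H2Bub1 at the gaining regions spanned a wide range under normal water and a narrower one in drought. The log2 concentration under normal water had a median of 4.30 and ranged from -0.06 to 7.01. Under moderate drought it had a median of 6.31 and ranged only from 5.14 to 8.22. In the losing regions the narrower range was that under normal water, from 5.00 to 9.47, against -0.20 to 8.02 in drought, and the choice of regions by direction enters both. The differences of the gaining regions had a median of 1.88 and ran from 1.01 to 6.81. Of the 224 regions, 105 differed by at least 2 and 37 by at least 4. At 19 regions the normal value stood at -0.06, the lowest concentration listed for normal water in the table, and their differences depend on that floor. The regions that lost the mark had the opposite order, with medians of 6.99 under normal water and 5.71 under drought, and a median difference of -1.30. These values chose the regions and are given as a description without a test.

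**Figure D1:**
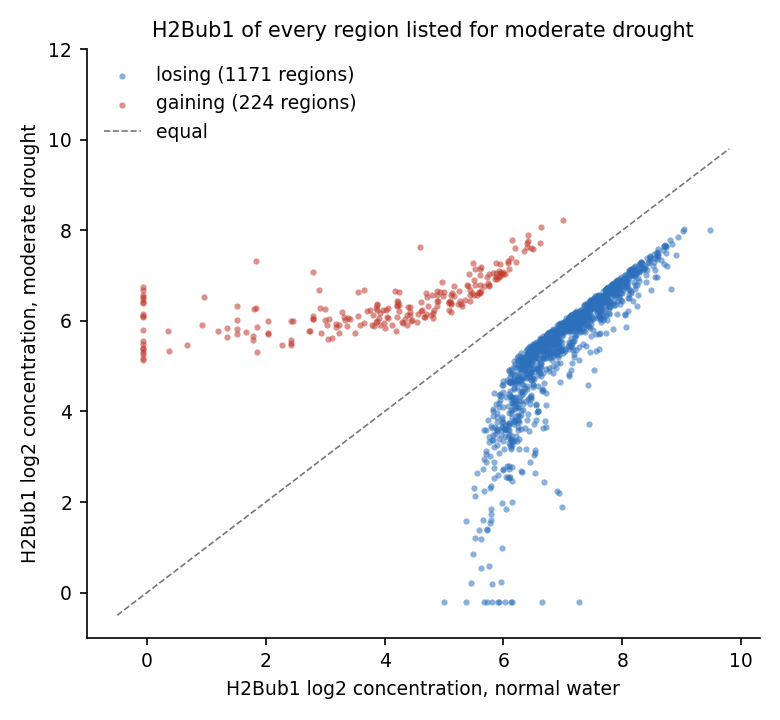
Each point is a region of the moderate-drought table, with its H2Bub1 log2 concentration under normal water on the x axis and under moderate drought on the y axis; red points are the 224 gaining and blue points the 1171 losing regions. Gaining regions spread from -0.06 to 7.01 along the x axis while staying between 5.14 and 8.22 along the y axis, and 19 of them stand in a column at -0.06.

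The deposited table listed no region with a difference between -1.0 and 1.01. Just inside the rule were the regions of LOC_Os08g29150 and LOC_Os03g21980, both at 1.01, and of LOC_Os03g18840 at 1.02. The nearest rows on the other side were the regions of LOC_Os05g31920, LOC_Os03g52770 and LOC_Os05g41790, all at -1.0. The false discovery rates of the gaining regions in the authors' deposited table were at most 0.0498 and had a median of 0.00346. The lowest, 1.5e-20, belonged to a region of LOC_Os01g64300 (chr1:37324408-37324907), where H2Bub1 went from 1.84 to 7.33 on the log2 scale. The next belonged to LOC_Os01g46970 (chr1:26802997-26803496), from 4.59 to 7.64, and to LOC_Os05g04570 (chr5:2125521-2126020), from 0.96 to 6.53. All coordinates are those of the deposited tables, with a genome build not given in the sources.

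The gaining regions lay close behind the start of their genes. All 1395 listed regions were 500 bases wide. Of the 224 gaining regions, 196 lay downstream of the start of the assigned gene, 10 covered it and 18 lay upstream. The annotation placed 133 (59.4%, 95% Wilson interval 52.8 to 65.6%) within 1 kb of the start, a class that includes downstream positions, a further 57 at 1 to 2 kb and 17 at 2 to 3 kb. Another 9 were exonic, 1 was intronic, 1 was in a 3′ UTR, 4 were distal intergenic and 2 were downstream of a gene. Of the losing regions, 24.5% (22.1 to 27.1%) were within 1 kb of the start and 42.4% at 1 to 2 kb. The intervals cover counting error only, and the difference between both sets was not tested.

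**Figure D2:**
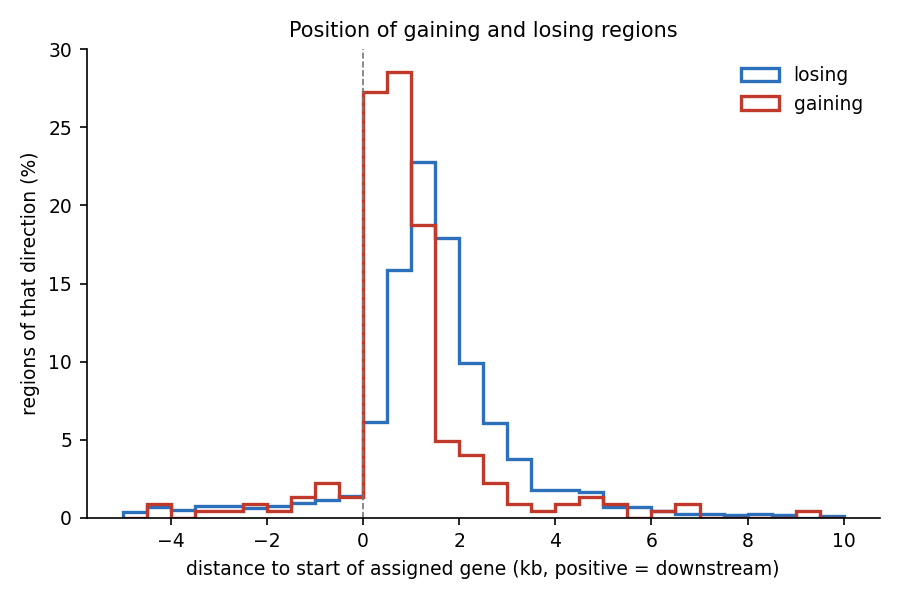
The x axis is the distance from the start of the assigned gene to the region in kb, positive downstream, and the y axis is the percentage of gaining (red) or losing (blue) regions in each bin. The gaining regions peak in the first kb, with a median of 752 bases against 1404 bases for the losing regions; losing regions beyond the axis, which reach -9418 and 20834 bases, are not drawn.

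The median distance to the start was 752 bases for gaining and 1404 bases for losing regions. Assigned genes had median lengths of 3584 and 4239 bases, so distance was also read relative to length. Of the gaining regions, 199 shared at least 1 base with their assigned gene model, which is here called inside it. For those of them not upstream of the start, the median position was at 21.4% of the gene's length from the start, with quartiles of 11.0 and 35.4%. For losing regions inside theirs it was at 31.9%, with quartiles of 22.9 and 44.0%. Both quartile ranges overlap. The gaining regions lay on all 12 chromosomes, with 44 on chromosome 3. Their share of the listed regions ran from 7.46% on chromosome 12 (5 of 67) to 26.2% on chromosome 5 (27 of 103).

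Some gains came in neighbouring regions. A search within 10 kb found 12 neighbouring pairs of gaining regions, with no losing region between any pair. No like count for the losing regions is set beside this, so no clustering of gains is read from the 12 pairs. LOC_Os02g54254 held 3 of the regions, on chromosome 2 between 33259205 and 33264233, with differences of 4.19, 3.03 and 4.83. LOC_Os11g37260 held a pair, with differences of 4.44 and 5.54. The other pairs were assigned to different genes. By position, however, LOC_Os01g58194, LOC_Os01g68680, LOC_Os02g51890, LOC_Os06g22060 and LOC_Os10g25130 each held both regions of a pair inside their model. LOC_Os01g58220 was the only gene assigned both a gaining region, at +2.64, and a losing region, at -1.31.

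RNA of the genes assigned to gaining regions was mostly higher in drought. RNA was not used to choose the regions and was tested on log2(TPM + 1), a scale that understates changes of genes with low values. In bulk samples, fewer cells of a type and less RNA per cell cannot be told apart. The median TPM over the 221 genes was 7.06, 7.10 and 8.37 in the normal libraries. It was 20.6, 21.6 and 20.3 in the moderate drought libraries and 23.0, 22.5 and 25.0 in the severe drought libraries. All 6 drought libraries stood above all 3 normal libraries, while moderate and severe drought were close together. For the 1115 genes of losing regions the same medians were 16.8 to 18.0 under normal water, 14.1 to 15.3 in moderate and 12.7 to 14.4 in severe drought. The gaining genes thus had a lower median than the losing genes under normal water and a higher one in both droughts.

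In moderate drought, 185 of the 221 genes rose and 1 fell (limma, Benjamini-Hochberg adjusted p under 0.05 over 20642 tested genes), where 39.4% of all tested genes rose and 18.9% fell. Of the remaining genes, 26 did not pass the test and 9 were not tested, 5 of them at 0 TPM in all 9 libraries. The filter on low values asked for at least 1 TPM in at least 3 libraries, and 5 genes passed it with no normal library at 1 TPM. Any tested gene below 1 TPM in a normal library passed only with drought libraries, and that selection enters its p-values. Among the 197 genes with at least 1 TPM in every normal library, 174 rose and 1 fell. The median log2 difference over all 221 genes was 1.35, with quartiles of 0.87 and 1.86, against 0.20 over all tested genes. An increase of at least 1 was called for 147 of the genes, against 12.2% of all tested genes, and one of at least 2 for 42, against 2.71%. Every moderate library was above every normal library for 194 genes (87.8%), where 48.3% of all tested genes had this order. Of the 1115 genes of losing regions, 139 rose and 473 fell.

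**Figure D3:**
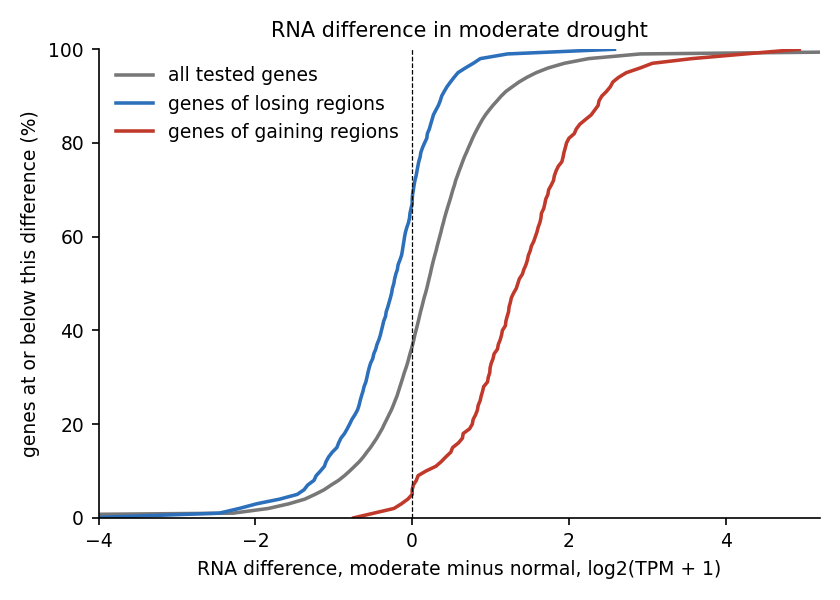
Cumulative curves of the RNA difference between moderate drought and normal water on log2(TPM + 1) (x axis), as the percentage of genes at or below each difference (y axis), for genes of gaining regions (red), of losing regions (blue) and all 20642 tested genes (grey). The red curve lies to the right of the grey over most of its course, with a median of 1.35 against 0.20, and the blue curve lies to its left with a median of -0.23; the tails of the grey curve run past the axis.

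The counts were recomputed under other scalings of the libraries. TPM values gave a median difference of 0.20 over all tested genes, and quantile normalization or median-of-ratios scaling moved that to -0.01 and 0.01. Under quantile normalization 27.6% of all tested genes rose and 28.0% fell, while 178 of the gaining genes rose and 6 fell. With median-of-ratios scaling, 28.5% of all tested genes rose and 27.5% fell, while 179 of the gaining genes rose and 5 fell. The median of the gaining genes relative to all genes was 1.21 on TPM and 1.19 under both scalings, over the 212 of them that were tested.

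Leaf transcripts moved in the same libraries. The summed level of 4 leaf markers, both Rubisco small subunit genes and both antenna protein genes, was 21035 to 26432 TPM under normal water, 12962 to 13788 TPM in moderate and 5696 to 11744 TPM in severe drought. The summed level of 3 root markers was 14.0 to 23.3 TPM over all libraries, and the shoot meristem marker OSH1 was listed at 0 in all. The leaf markers did not move together. The antenna gene LOC_Os09g17740 was 8803 to 9706 TPM under normal water and 8941 to 10422 TPM in moderate drought, which overlap, while the other 3 were lower in every moderate library than in every normal one. Among the root markers, LOC_Os02g51110 was 11.1 to 21.7 TPM and made up most of the sum. LOC_Os06g48810 was at most 0.146 TPM under normal water and at least 1.45 TPM in drought, and LOC_Os03g46470 was at least 1.45 TPM under normal water and at most 0.387 TPM in drought. The part of these changes in the results of the gaining genes was not tested.

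Genes with larger H2Bub1 gains had lower median RNA under normal water. The grouping uses the values that chose the regions. With drought levels confined to 5.14 to 8.22, a large gain mostly means a low H2Bub1 level under normal water. The order of the groups is therefore a description only. Genes with a gain of at least 4 had a median of 3.39 TPM under normal water and 17.9 TPM in moderate drought, and 26 of 35 rose. Genes with a gain of 2 to 4 went from 5.94 to 17.2 TPM, and 55 of 68 rose. Genes with a gain under 2 went from 9.42 to 24.9 TPM, and 105 of 119 rose. These totals include genes that were not tested, and LOC_Os02g54254 counts in both upper groups. The median RNA differences of these groups were 1.69, 1.26 and 1.35. Over the 224 regions the rank correlation between the H2Bub1 difference and the RNA difference was 0.11 (Pearson 0.25), and that between both levels was 0.30 under normal water and 0.30 under moderate drought. These correlations are across regions of pooled samples, which share libraries and some genes, and are descriptions only.

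Genes of ABA signalling included some of the largest values. Of 47 genes in 6 lists (signalling and metabolism of ABA, bZIP factors of the ABA response, NAC and DREB stress factors, effectors of drought tolerance, and H2B ubiquitination), 25 rose and 7 fell in moderate drought, against 39.4% and 18.9% of all tested genes. Gaining regions were assigned to 3 of the 47, 2 of them among the 19 genes of ABA signalling, and a losing region to 1, the kinase gene SAPK1. Among all 20642 tested genes, 212 were assigned a gaining and 1051 a losing region. With so few list genes, no result about the lists is read from these counts. Of the 19 genes of ABA signalling, 12 rose and 4 fell, the latter a share near that of all tested genes, and of the 5 ABA-related bZIP genes, 4 rose and 1 was not tested. None of the genes in the other 4 lists was assigned a gaining region.

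LOC_Os05g49730, listed here as PP2C51, encodes a protein phosphatase of the clade A group, which holds ABA signalling kinases in check. Its region (chr5:28524702-28525201), 824 bases downstream of the start, went from -0.06 to 6.39 in H2Bub1 log2 concentration. Its RNA was 0.595, 0.427 and 0.937 TPM under normal water, 49.5, 52.4 and 46.2 TPM in moderate and 61.7, 45.8 and 128 TPM in severe drought. No drought library came near the normal ones, and severe replicate 3 was the highest. With no normal library at 1 TPM, the gene entered the test only through its drought libraries, and that selection enters its p-values. The rise was 4.94 ± 0.32 (SE, n = 3 against 3; limma adjusted p = 6.42e-06) in moderate and 5.46 ± 0.32 (limma adjusted p = 4.1e-06) in severe drought.

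LOC_Os03g16170, listed here as PP2C30, is a phosphatase gene of the same clade. Its region (chr3:8921733-8922232), 1205 bases downstream of the start, went from 1.66 to 5.76. Its RNA was 19.3, 26.4 and 23.3 TPM under normal water, 168, 157 and 150 TPM in moderate and 146, 143 and 236 TPM in severe drought. Both drought groups were clear of the normal group and overlapped each other. The rise in moderate drought was 2.74 ± 0.19 (limma adjusted p = 9.41e-06).

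LOC_Os02g52780, listed here as bZIP23, encodes a transcription factor that acts in ABA and drought responses of rice. H2Bub1 at its region (chr2:32280076-32280575), 1078 bases downstream of the start, was high in both conditions, at 6.41 under normal water and 7.90 under moderate drought. Its RNA was 12.8, 13.2 and 18.9 TPM under normal water, 100, 79.9 and 96.6 TPM in moderate and 96.4, 95.5 and 118 TPM in severe drought. The groups under drought overlapped each other and not the normal group. The rise in moderate drought was 2.56 ± 0.16 (limma adjusted p = 5.5e-06).

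PP2C09, LOC_Os01g62760, a further clade A phosphatase gene, is covered by a gaining region (chr1:36344852-36345351, difference 1.09) that the annotation assigned to its neighbour LOC_Os01g62770. PP2C09 RNA was 67.6, 75.5 and 85.8 TPM under normal water, 294, 270 and 301 TPM in moderate and 291, 285 and 320 TPM in severe drought. The rise in moderate drought was 1.91 ± 0.11 (limma adjusted p = 3.21e-06). LOC_Os01g62770 rose by 2.54, and LOC_Os01g62780, whose distal region 3269 bases upstream of its start gained 6.55, rose by 2.93 ± 0.15 (limma adjusted p = 2.55e-06). These neighbours all rose.

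**Figure D4:**
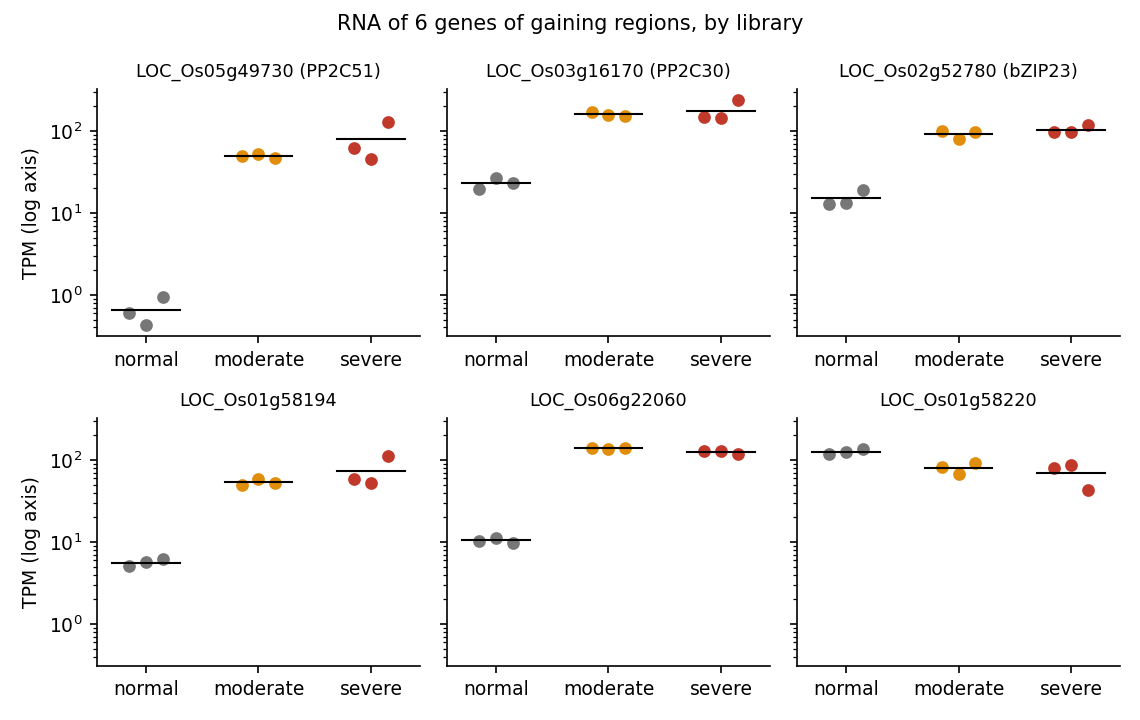
TPM (log axis) of 6 genes of gaining regions in each of the 9 libraries, by condition; points are libraries and lines are means of 3. In the first 5 genes every drought library lies above every normal library, from under 1 to 49.5, 52.4 and 46.2 TPM for PP2C51 in moderate drought, while LOC_Os01g58220 is lower in drought.

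The 12 largest H2Bub1 differences ran from 5.61 to 6.81, and all 12 regions stood at -0.06 under normal water. The largest was in LOC_Os01g58194 (chr1:33643099-33643598), 1145 bases downstream of the start, at 6.75 in moderate drought. The files used here give this gene and most others no name or function. Its RNA was 5.12, 5.64 and 6.14 TPM under normal water, 49.4, 58.5 and 52.8 TPM in moderate and 59.2, 52.4 and 112 TPM in severe drought. The rise was 3.04 ± 0.25 (limma adjusted p = 1.85e-05), with no overlap between normal and drought libraries. Of the genes of these 12 regions, 10 rose and the other two were not tested. LOC_Os04g08570, with a gain of 6.15 at a region classed as distal intergenic, was listed at 0 TPM in all 9 libraries.

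LOC_Os06g13720 had the second largest gain, 6.74, and LOC_Os05g31020 the third, 6.63. LOC_Os06g13720 RNA was 0.870, 0.862 and 1.27 TPM under normal water, 39.9, 46.2 and 29.6 TPM in moderate and 45.4, 36.9 and 135 TPM in severe drought. LOC_Os05g31020 RNA was 2.54, 3.28 and 3.46 TPM under normal water, 106, 154 and 96.5 TPM in moderate and 95.7, 85.0 and 299 TPM in severe drought. In neither gene did normal and drought libraries overlap, and severe replicate 3 was the highest in both. They rose by 4.29 ± 0.42 (limma adjusted p = 4.9e-05) and 4.85 ± 0.43 (limma adjusted p = 2.8e-05) in moderate drought. LOC_Os06g13720 did not reach 1 TPM in every normal library and passed the filter only with its drought libraries. That selection enters its p-value. LOC_Os06g45710, with a gain of 6.48, was higher from the start, at 11.3, 12.9 and 13.1 TPM under normal water against 107, 144 and 97.1 TPM in moderate drought.

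Some large RNA rises were at gains of H2Bub1 below the median of 1.88, as at LOC_Os11g32260, and others above it. LOC_Os06g22060 gained 1.62 at its assigned region (chr6:12796485-12796984). The region with a gain of 6.22 assigned to its neighbour LOC_Os06g22070 also lies inside the LOC_Os06g22060 model. RNA of LOC_Os06g22060 was 10.4, 11.3 and 9.82 TPM under normal water, 142, 135 and 141 TPM in moderate and 128, 128 and 117 TPM in severe drought. It rose by 3.61 ± 0.08 (limma adjusted p = 6.39e-08), with replicates that differed little. LOC_Os11g32260 gained 1.07 in H2Bub1 and went from 5.90, 5.72 and 5.06 TPM to 48.1, 45.0 and 50.9 TPM, with no overlap. LOC_Os01g45640 gained 3.69 and rose by 4.10, from 9.87, 19.1 and 37.4 TPM to 322, 428 and 305 TPM. LOC_Os12g01530 gained 2.12 and rose by 3.51, and reads of it may be shared with a copy, since the starts of rice chromosomes 11 and 12 hold a recent duplication. Beyond this, 16 of the 221 genes overlap another gene model, 14 of them one on the opposite strand, and how such reads were counted is not stated.

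LOC_Os02g54254, the gene with 3 gaining regions, rose by 2.50 ± 0.76 (limma adjusted p = 0.0202). Its RNA was 5.00, 5.79 and 8.20 TPM under normal water, 29.8, 65.0 and 32.7 TPM in moderate and 44.9, 28.5 and 310 TPM in severe drought. Severe replicate 3 stood far above the other libraries. The call was lost without normal replicate 1, normal replicate 2 or moderate replicate 2, at limma adjusted p of 0.0611, 0.0556 and 0.0722. LOC_Os11g37260, with a pair of regions, rose by 1.80 ± 0.14 (limma adjusted p = 1.17e-05), from 3.51, 3.24 and 3.44 TPM to 15.7, 12.1 and 15.3 TPM.

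Where a region lay inside the gene it was assigned to, RNA of that gene mostly rose. Of the 196 genes with a region inside their model, 175 rose and none fell. Of the 25 genes whose region lay outside, 10 rose, 1 fell and 7 were not tested. Of those 25 regions, 10 lay inside another gene model, and there the covering gene rose in 7 cases and the assigned gene in 4. The covering genes LOC_Os06g22060, LOC_Os10g25130, LOC_Os01g58194 and LOC_Os01g68680 also hold a region assigned to them and are already among the 175. The counts of 7 and 4 were not compared by a test, and of all tested genes 39.4% rose. The other 15 of the 25 regions lay in no gene model. At 6 of these 15 the assigned gene rose, and several of the other assigned genes were not tested. The 39.4% counts tested genes only and does not compare directly, so no result about these regions is read from the count.

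The single fall belongs to such a case. LOC_Os01g58220 went from 120, 125 and 136 TPM under normal water to 83.0, 67.4 and 91.1 TPM in moderate drought, with no overlap. The difference was -0.66 ± 0.25 (limma adjusted p = 0.0457), and the call was lost in 10 of 16 alternatives, at limma adjusted p up to 0.145. Its gaining region (chr1:33650160-33650659) lies inside the model of LOC_Os01g58194, which rose. A similar case is the region assigned to LOC_Os06g22070 (chr6:12798931-12799430, gain 6.22), which lies inside LOC_Os06g22060. Another is that of LOC_Os10g25140 (chr10:12972423-12972922, gain 3.02), at which the covering gene LOC_Os10g25130 rose by 2.40 ± 0.23 (limma adjusted p = 3.95e-05), against a difference of 0.04 (limma adjusted p = 0.889) for the assigned gene. At LOC_Os03g51080 and LOC_Os09g36060, which also cover regions assigned to neighbours, differences were 0.24 and -0.10 and did not pass the test.

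In severe drought, 196 of the 221 genes were higher than under normal water and 2 lower (limma adjusted p under 0.05), where 42.1% of all tested genes rose and 20.6% fell. The median difference over the 221 genes was 1.39, against 0.22 over all tested genes. Every severe library was above every normal library for 197 of the genes, where 45.3% of all tested genes had this order. An increase of at least 1 was called for 154 of them, against 13.8% of all tested genes. Both comparisons share the normal libraries, so the values for severe drought are not a repeat of those for moderate drought.

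Between severe and moderate drought no gene of a gaining region passed the test (limma, 0 of 212 tested), where 0.00969% of all tested genes rose and 0.00484% fell. At unadjusted p under 0.05 there were 21 such genes, 14 of them higher in severe drought. The median difference was 0.02 over the 221 genes. Severe libraries were all above moderate ones for 23 genes and all below for 13, where 9.55% and 10.8% of all tested genes had these orders. Severe replicate 3 was the highest of all 9 libraries for 99 of the 216 genes with any RNA (45.8%) and for 29.2% of all tested genes. Without it, 0 of the genes passed the test and 22 had an unadjusted p under 0.05.

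Some of the same genes appeared in the authors' deposited table for severe drought. That table lists 886 regions, 93 of them (10.5%) gaining, and holds only regions that differed by at least 1, so that a gene missing from it is not shown to be unaltered. It contains 20 of the 221 genes, 16 at gaining and 4 at losing regions. The 16 are 7.24% of the 221 genes and 17.8% of the 90 genes gaining in severe drought. Of the 1115 genes of losing regions, 260 (23.3%) were among the 780 genes in the losing part of the same table. In its gaining part were 2 of them (0.179%). Since the gaining part lists far fewer genes than the losing part, 7.24% and 23.3% do not compare directly. Both tables share the normal samples, so their values are set side by side and the overlap was not tested. No gaining region had identical bounds in both tables, against 55 of the losing regions, while 18 shared at least 1 base with a region of the severe table.

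**Figure D5:**
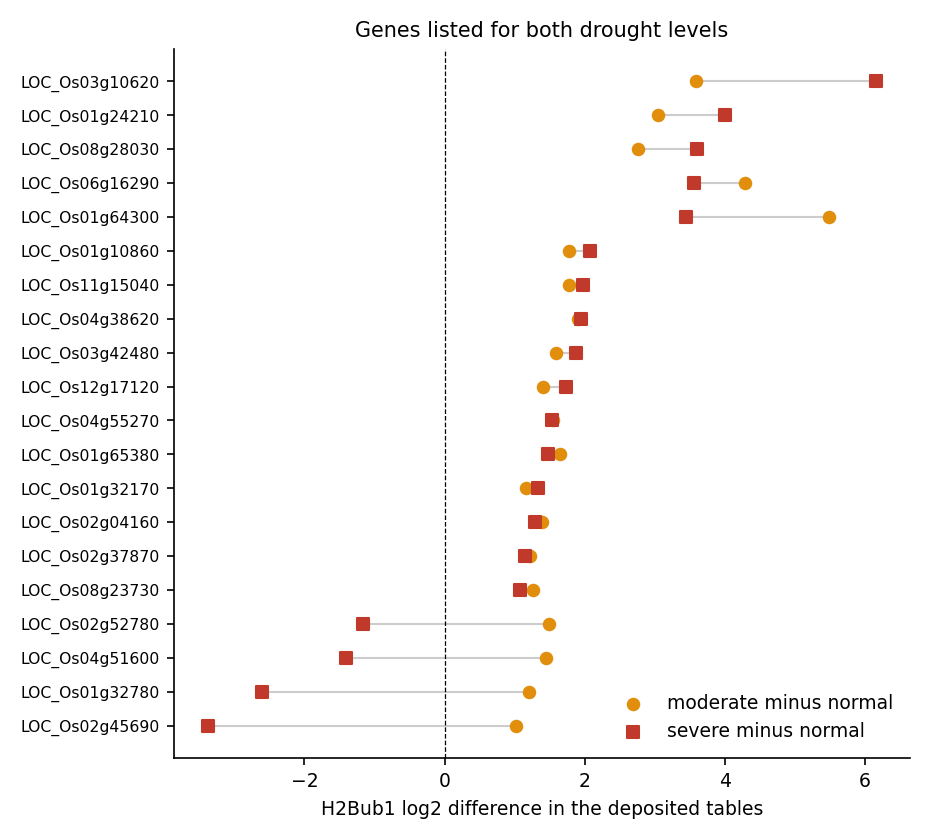
H2Bub1 log2 difference from normal water (x axis) in moderate drought (orange circles) and severe drought (red squares) for the 20 genes assigned a gaining region in moderate drought and listed for severe drought (y axis), from the authors' deposited tables, without replicate error. In 16 genes both values lie above 0; in LOC_Os02g52780, LOC_Os04g51600, LOC_Os01g32780 and LOC_Os02g45690 the severe value lies below it.

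Among the 16 genes gaining in both of the authors' deposited tables, the differences from normal water ran from 1.16 to 5.49 in moderate and from 1.07 to 6.16 in severe drought. LOC_Os03g10620 gained 3.58 in moderate and 6.16 in severe drought, where the normal value was 2.42 at the former region and -0.06 at the latter, and both regions share 291 bases. LOC_Os01g64300, with the lowest false discovery rate, gained 5.49 and 3.44. LOC_Os06g16290 gained 4.29 and 3.56, LOC_Os08g28030 gained 2.76 and 3.60, LOC_Os01g24210 gained 3.05 and 4.00, and LOC_Os01g10860 gained 1.77 and 2.07. RNA of these 6 genes rose in both droughts. For LOC_Os06g16290 it was 14.2, 15.7 and 18.6 TPM under normal water, 113, 125 and 89.5 TPM in moderate and 115, 117 and 68.0 TPM in severe drought. For LOC_Os01g24210 it stayed low, between 0.741 and 0.966 TPM under normal water and between 1.41 and 2.22 TPM in drought. This gene too entered the test only through its drought libraries.

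At 4 genes the authors' deposited tables listed a gain in moderate and a loss in severe drought. LOC_Os02g45690 had +1.02 and -3.38, LOC_Os01g32780 had +1.21 and -2.60, LOC_Os04g51600 had +1.44 and -1.41, and LOC_Os02g52780 (bZIP23) had +1.49 and -1.17. The starts of the paired regions were 29 to 536 bases apart, so that 3 of the 4 pairs overlapped, sharing 444 of 500 bases at bZIP23, 471 at LOC_Os01g32780 and 186 at LOC_Os02g45690, and the pair at LOC_Os04g51600 shared none. Their normal concentrations were alike in both tables, for bZIP23 6.41 and 6.51, and bZIP23 stood at 7.90 in moderate and 5.34 in severe drought. RNA of 3 of these 4 genes was higher in both droughts than under normal water, and the fourth was not tested. LOC_Os01g32780 went from 23.9, 27.8 and 37.6 TPM under normal water to 116, 192 and 150 TPM in moderate and 153, 123 and 455 TPM in severe drought. LOC_Os02g45690 was 15.1, 16.5 and 15.7 TPM under normal water, 27.7, 29.7 and 28.7 TPM in moderate and 27.8, 27.2 and 42.1 TPM in severe drought, and it overlaps a gene on the opposite strand. Both rose in each drought, as did bZIP23, and the drought groups overlapped. For LOC_Os04g51600, the region in the moderate table lies inside LOC_Os04g51610, which rose by 1.45 ± 0.23 (limma adjusted p = 0.000645).

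In the osbzip46 mutant, 2 of the authors' deposited tables, both titled as drought, give H2Bub1 against wild type. The table of regions lists 522 rows, 82.8% of them higher in the mutant, and 9 rows with a false discovery rate under 0.05. It holds 53 of the 1115 genes of losing regions (4.75%) at regions higher in the mutant and 11 (0.987%) at lower ones. Of the 221 genes it holds 7 (3.17%), all higher in the mutant, by 1.05 for LOC_Os10g01540 to 2.61 for LOC_Os12g01530. Their false discovery rates in the authors' deposited table were 0.366 to 0.928, so none passed 0.05. In 2 of the 7, LOC_Os04g55270 and LOC_Os10g01540, the mutant-table region shared bases with the gaining region. RNA of 5 of the 7 genes rose in moderate drought, where 83.7% of the 221 genes and 39.4% of all tested genes rose. LOC_Os09g39960 and LOC_Os07g48420, at differences of 0.38 (limma adjusted p = 0.082) and 0.08 (limma adjusted p = 0.764), did not pass the test, although LOC_Os09g39960 passed it in 5 of 16 alternatives.

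The authors' deposited list of genes with differing H2Bub1 under drought holds 1265 genes, all lower in the mutant, and marks 217 (17.2%) as OsbZIP46 targets. It contains 7 of the 221 genes, which is 3.17% of them and 0.553% of the list, and 32 of the 1115 genes of losing regions (2.87%). LOC_Os01g58194, the gene with the largest gain in moderate drought, is among them as a target, at -1.16 in the mutant. LOC_Os02g45690 (-1.72), LOC_Os02g04160 (-1.23) and LOC_Os11g45710 (-1.11) were also marked as targets, and LOC_Os01g68680 (-1.29), LOC_Os05g37700 (-1.10) and LOC_Os02g48190 (-1.07) were not. The list gives p-values of an unnamed test, 0.00376 to 0.0472 for these 7 genes, and no false discovery rate. No gene was in both mutant tables and the gaining set. RNA of all 7 rose in moderate drought, by 0.73 to 3.04, where 83.7% of the 221 genes and 39.4% of all tested genes rose. In LOC_Os11g45710 it was 10.4, 11.4 and 10.9 TPM under normal water, 34.1, 28.2 and 46.0 TPM in moderate and 25.9, 31.6 and 21.4 TPM in severe drought. The list's own expression change for drought against normal water in wild type differed from these RNA values, for example 5.47 against 1.13 for LOC_Os02g04160 and 0.12 against 1.61 for LOC_Os11g45710, and the samples behind it are not named in the sources. Neither PP2C51, PP2C30 nor bZIP23 was in a mutant table.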

How the data were processed

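RNA was read from 9 tables, 1 per library, in which the authors list TPM, FPKM and coverage per gene, per the file headers. For H2Bub1, the authors' deposited tables hold log2 concentrations, log2 fold changes, p-values and false discovery rates, per the file headers, combined over replicates in an unstated way. The submitters' processing notes name Bowtie2 2.3.4, MACS2 2.1.1, HISAT2 2.0.5 and DESeq2 1.20.0, with no role. The genome build is not named in the sources, and single H2Bub1 libraries were not analysed here.

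Libraries listed 55986 genes, 19185 to 20012 of them at 1 TPM or more, with 8.30 to 10.7 Gb of aligned bases implied by coverage over FPKM; read counts were not used. The 20642 genes reaching 1 TPM in 3 or more libraries were fitted as log2(TPM + 1) in 1 model over 9 libraries with limma 3.58.1 in R 4.3.3 (trend and robust eBayes, statmod 1.5.0), two-sided, with Benjamini-Hochberg adjustment over all tested genes and a threshold of 0.05. The fit was tested on simulated data. Rose and fell refer to genes past the threshold. Regions and gene models were joined by position on the coordinates of the deposited tables (Python 3.11.15, pandas 2.3.3). The shares of regions within 1 kb of a start carry 95% Wilson intervals.

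Named regions were the 12 with the largest differences, those at the edge of the rule and the 3 with the lowest false discovery rate. Named genes were the 10 with the largest RNA rises and all falls (higher condition averaging 5 TPM or more, no overlap), members of the lists, genes with several regions or both directions, and up to 8 genes shared with each other table. Covering gene models and the remaining genes were named after their values were seen. The members and lists were chosen with earlier results of these data known. None of the member genes matched the RefSeq gene table, so no names or sequences were taken from it.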

Additional observations from a re-analysis of the deposited data

How the results depend on the processing

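The counts of gaining genes that rose or fell were compared with those of other settings, and the median difference was taken over the 212 tested genes, at 1.41 in moderate and 1.42 in severe drought. The median moved to 1.52 and 1.55 with a pseudocount of 0.1, to 1.18 and 1.18 under quantile normalization, and to 1.2 and 1.22 under median-of-ratios scaling. Leaving out 1 library gave medians of 1.35 to 1.47 in moderate and 1.38 to 1.51 in severe drought, and counts of genes that rose of 179 to 194 and 187 to 198. Alternatives added after seeing the data gave 180 genes higher in moderate drought for the gene models covering the regions, and, for regions with a difference of at least 2, 80 higher with a median of 1.48 in moderate and 88 higher with 1.54 in severe drought, as fewer genes enter. The replicate numbers did not pair the libraries (correlation of deviations of -0.257 to 0.143 for equal numbers), and with the replicate block 187 genes rose in moderate and 195 in severe drought. With a false discovery rate under 0.01 in both tables, 4 genes gained in both droughts and 2 lost in severe drought. Requiring that the regions share most of their length left 2 of the losing kind. Genes shared with the mutant region table fell to 2 by position and 0 at a false discovery rate under 0.01. Those shared with the mutant gene list, which gives p-values and no false discovery rate, fell to 1 at 0.01, as fewer entries remain. Of 40 named genes tested, 5 lost or gained a call or turned direction under at least 1 setting, and 615 of 639 values kept both. LOC_Os07g48420, at 0.08, turned to -0.16 under quantile normalization, -0.13 under median-of-ratios scaling and -0.02 without moderate replicate 2 (range without 1 library -0.02 to 0.12), never past the threshold; the cause was not tested. LOC_Os09g39960 gained a call in 5 of 16 alternatives: the fit of the 6 libraries compared, the replicate block, and without normal replicate 3, moderate replicate 2 or severe replicate 3 (0.38 to 0.50, limma adjusted p of 0.00932 to 0.0495). LOC_Os11g10770 lost its call without normal replicate 1, normal replicate 2 or moderate replicate 3 (limma adjusted p of 0.0588, 0.0674 and 0.0718). H2Bub1 values carry no replicate error here, and TPM values give no read counts, so the depth behind single genes is unknown.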

Other observations

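Gaining regions that lie in no gene model held some of the largest differences. The region at chr4:4646850-4647349 gained 6.15 in the authors' deposited table and was assigned to LOC_Os04g08570, which was listed at 0 TPM in every library. On its other side, 5921 bases away, LOC_Os04g08550 rose by 1.83 ± 0.26 (limma adjusted p = 0.000356). The region at chr1:22611241-22611740 gained 3.80. Its assigned gene LOC_Os01g40080 was not tested, and its other neighbour LOC_Os01g40070 differed by 0.13 ± 0.47 (limma adjusted p = 0.827). The region at chr7:28953697-28954196, with a gain of 3.46, lies 2786 bases from LOC_Os07g48420, which did not pass the test. LOC_Os07g48410, on its other side, rose by 0.89 ± 0.08 (limma adjusted p = 3.64e-05) and lies 20731 bases away. These flanking genes were named after their values were seen.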
